A study of Homo sapiens with 6 samples.

Results

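The HOX genes were examined in WI38 cells, a line of human diploid fibroblasts from lung, after depletion of MALAT1, a long nuclear noncoding RNA. Members were all genes of the HOXA, HOXB, HOXC and HOXD clusters with at least 1 probeset (a set of array probes read together, usually for 1 exon) that names no other gene. This rule found 36 HOX genes among 16573 genes: 10 in HOXA, 10 in HOXB, 7 in HOXC and 9 in HOXD. They were read by 255 probesets, with 3 to 15 per gene. HOXC5 and HOXC6 had no probeset of their own.

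The 3 groups were cells given the antisense oligonucleotide AS1 against MALAT1, cells given AS2, a second antisense oligonucleotide against MALAT1, and cells given a control oligonucleotide (Ctr). All groups received oligonucleotide at 100 nM in 2 transfections 24 h apart, and each group was read on 2 Affymetrix exon arrays. The probesets of a gene were averaged on each array, on the log2 scale, to give its value, so a difference of 1 is a change of 2-fold. WI38 is a single line, and nothing in the labels says that the 2 arrays of a group came from separate cultures, so p-values here measure only the spread between these samples. On these bulk arrays, fewer cells using a gene and less RNA per cell cannot be told apart.

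HOX genes encode homeodomain transcription factors that give cells their place along the body axis. They lie in clusters in which genes at one end act toward the head and genes at the other end act toward the tail and the tips of the limbs, and the paralog number of a gene gives its place in this order. Fibroblasts keep much of the HOX pattern of their site of origin in culture, and anterior and middle HOX genes, HOXA5 and HOXB5 among them, take part in the development of the lung in the mouse.

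The oligonucleotides are shown first because they define the groups. Both are 20 bases long, and they are written 5' to 3'. GC bases make up 50% of AS1 and 30% of AS2. The study lists more than 1 control oligonucleotide, and the one used for these arrays was not given in the sources used here.
AS1: gggagttacttgccaacttg
AS2: atggaggtatgacatataat

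MALAT1 was lower on every AS1 and AS2 array than on either Ctr array. MALAT1 had log2 values of 9.23 and 7.82 with AS1, 8.19 and 8.13 with AS2, and 12 and 11.97 in Ctr. It fell by 3.64 on the log2 scale in the mean of both oligonucleotides (limma adjusted p 0.000103). Arrays of 1 group correlated at 0.984 to 0.987 over all probesets.

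Which HOX genes were on in control cells was read against olfactory receptor genes, which fibroblasts are taken not to use. A gene was called on in Ctr when its value lay above the 95th percentile of the 278 olfactory receptor genes on both Ctr arrays, which was 6.08 on Ctr array 1 and 5.76 on Ctr array 2. By this rule 23 of 36 HOX genes (63.9%) were on in Ctr, beside 67.6% of all genes. Of 10 regulators of the body axis measured, 7 were on by the same rule, CDX1, CDX2, GBX2 and T among them. On therefore means above this threshold and does not by itself show that the cells use a gene. Levels of different genes carry the affinity of their probes, so they were not ranked against each other. In HOXA the unbroken stretch HOXA2 to HOXA7 was on, then HOXA9 was off, HOXA10 on, HOXA11 off and HOXA13 on. In HOXB the stretch HOXB1 to HOXB8 was on, and HOXB9 and HOXB13 were off. In HOXC only HOXC12 and HOXC13 were on among genes with probesets of their own, and HOXC4 and HOXC8 to HOXC11 were off. In HOXD the genes HOXD1, HOXD4, HOXD8, HOXD9 and HOXD11 were on, while HOXD3, HOXD10, HOXD12 and HOXD13 were off. A gene value averages its probesets, and in some genes few of them were bright. Probesets above the array median on both Ctr arrays were 1 of 9 in HOXC13, 2 of 5 in HOXC12 and 1 of 9 in HOXA10. They were 0 of 3 in HOXB1 and 0 of 4 in HOXB8, but 7 of 10 in HOXB2 and 6 of 10 in HOXD1. HOXA9, which was off, had 2 of 11.

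The number of HOX genes that were on depended on the threshold. Above the median of all genes on both Ctr arrays lay 6 HOX genes: HOXA5, HOXA7, HOXB2, HOXB3, HOXB4 and HOXB5. At the 99th percentile of olfactory receptor genes 14 were on, without HOXA4, HOXA10, HOXB1, HOXB6, HOXB7, HOXB8, HOXC13, HOXD8 and HOXD9. At the 90th percentile 25 were on, with HOXC8 and HOXD13 added. HOXC8 was at the margin, with log2 values of 5.98 on Ctr array 1 and 5.90 on Ctr array 2, the first below and the second above the threshold of its array. HOXB1, just inside, had 6.44 and 5.84.

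The fibroblast label was checked with the same threshold. All 10 fibroblast markers measured were on in Ctr, with log2 values between 9.78 and 11.97. Of these markers 4 were lower in the mean of both oligonucleotides, with COL3A1 falling by 1.19, PDGFRA by 0.62, THY1 by 0.58 and PDGFRB by 0.54, and 0 were higher, beside 9.61% of all genes lower and 13% higher. With AS1 3 of the 10 were lower, beside 7.2% of all genes, with a median change of -0.18. With AS2 5 of the 10 were lower, beside 8.16% of all genes, with a median change of -0.51. All 10 had lower means with AS2 than with AS1, beside 7767 of all 16573 genes, and 0 of the 10 differences were called. Of 9 epithelial markers 4 were on, namely KRT8, KRT18, KRT19 and SFTPC, a surfactant gene of the alveolar epithelium, and 0 were called. TEK was the 1 of 5 endothelial markers that was on and fell by 0.61, while PECAM1 was not on and was 0.76 higher in the mean of both oligonucleotides. CD14 was the 1 of 4 leukocyte markers that was on, and 0 were called. The part of these markers in the HOX values was not tested.

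**Figure D1:**
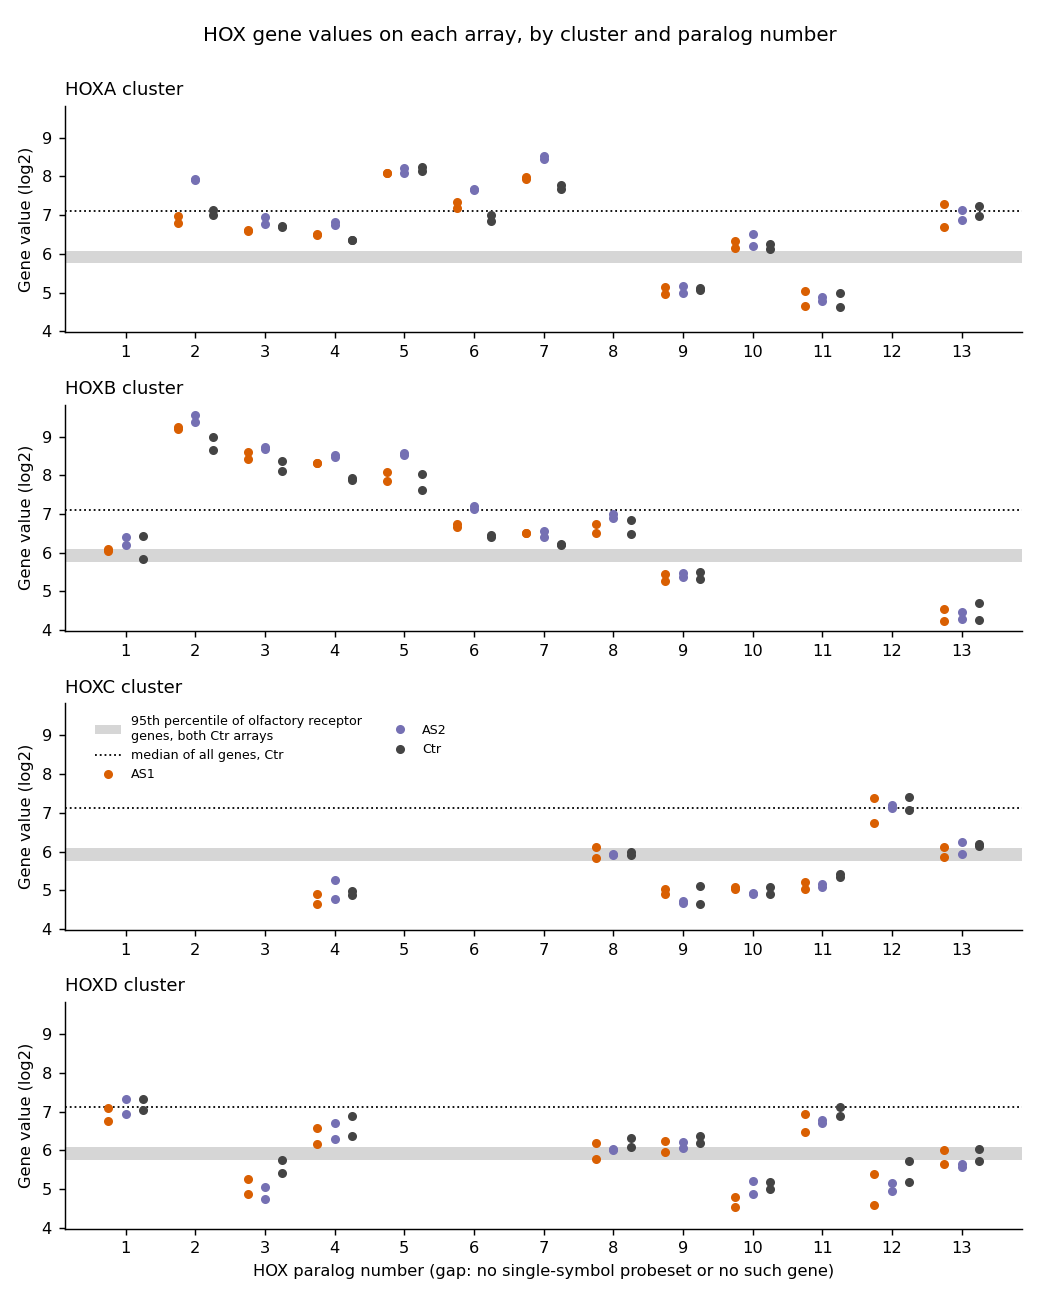
Gene value (log2, mean of probesets) of each HOX gene on each array, by cluster (panels) and paralog number (horizontal axis), with points for AS1, AS2 and Ctr arrays, a grey band between the thresholds of the 2 Ctr arrays (6.08 and 5.76) and a dotted line at the median of all genes. HOXA2 to HOXA7 and HOXB2 to HOXB8 lie above the band on all 6 arrays, and HOXA9, HOXA11, HOXB9 and HOXB13 lie below it.

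HOXA2, which patterns the hindbrain and the pharyngeal arches, had log2 values of 6.99 and 6.81 with AS1, 7.90 and 7.94 with AS2, and 7.0 and 7.13 in Ctr. The AS2 arrays were above all others, and the AS1 arrays lay just below Ctr. HOXA3, which takes part in the formation of thymus and parathyroid, had 6.61 and 6.60 with AS1, 6.95 and 6.76 with AS2, and 6.72 and 6.69 in Ctr. HOXA4 had 6.49 and 6.52 with AS1, 6.83 and 6.73 with AS2, and 6.35 on each Ctr array, with no overlap between any of the groups. HOXA5, which is needed for normal lung and airway development in the mouse, had 8.09 and 8.08 with AS1, 8.21 and 8.09 with AS2, and 8.14 and 8.25 in Ctr. All 6 values of HOXA5 lay close together, and it was not called in any comparison.

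HOXA6 and HOXA7, middle genes of the cluster that act along the trunk, were ordered AS2 above AS1 above Ctr without overlap. HOXA6 had log2 values of 7.34 and 7.19 with AS1, 7.69 and 7.65 with AS2, and 7.0 and 6.85 in Ctr. HOXA7 had 7.94 and 7.98 with AS1, 8.53 and 8.44 with AS2, and 7.68 and 7.77 in Ctr. Further along the cluster the order was lost. HOXA10, known from the uterus and from blood formation, had 6.16 and 6.32 with AS1, 6.52 and 6.21 with AS2, and 6.25 and 6.12 in Ctr. HOXA13, a gene of the digits and the urogenital tract, had 6.70 and 7.28 with AS1, 7.12 and 6.88 with AS2, and 7.25 and 6.98 in Ctr. In both genes the 3 groups overlapped.

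HOXB2 to HOXB5 each lay above the median of all genes in Ctr. HOXB2, which acts in the hindbrain, had log2 values of 9.25 and 9.20 with AS1, 9.56 and 9.38 with AS2, and 8.64 and 8.99 in Ctr. HOXB3, which also acts in the hindbrain, had 8.59 and 8.41 with AS1, 8.74 and 8.67 with AS2, and 8.10 and 8.38 in Ctr. HOXB4, known for the growth of blood stem cells, had 8.32 on each AS1 array, 8.47 and 8.51 with AS2, and 7.87 and 7.92 in Ctr. In these 3 genes every AS1 and AS2 array was above both Ctr arrays. HOXB5, a gene of lung and gut development, had 8.08 and 7.84 with AS1, 8.53 and 8.56 with AS2, and 7.63 and 8.02 in Ctr, so that AS2 was apart and AS1 and Ctr overlapped.

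HOXB6 had log2 values of 6.74 and 6.67 with AS1, 7.21 and 7.13 with AS2, and 6.46 and 6.40 in Ctr. HOXB7 had 6.51 and 6.52 with AS1, 6.40 and 6.56 with AS2, and 6.23 and 6.20 in Ctr. Both genes, which act along the trunk, had all AS1 and AS2 arrays above Ctr, and HOXB6 also had AS2 apart from AS1. HOXB8 had 6.51 and 6.75 with AS1, 6.91 and 6.99 with AS2, and 6.49 and 6.84 in Ctr. HOXB1, which marks a segment of the embryonic hindbrain, had 6.10 and 6.03 with AS1, 6.40 and 6.19 with AS2, and 6.44 and 5.84 in Ctr. In HOXB8 the AS2 arrays were the highest and the AS1 and Ctr arrays overlapped, while in HOXB1 the Ctr arrays spanned all others.

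More HOX genes were called with AS2 than with AS1. The groups were compared in limma in one fit of all 6 arrays over 16573 genes, and calls were made below a p of 0.05 after Benjamini-Hochberg adjustment. With AS1, 1 of 36 HOX genes was called higher (2.78%) and 0 lower, beside 10.4% of all genes higher and 7.2% lower. With AS2, 8 HOX genes were called higher (22.2%) and 1 lower (2.78%), beside 10.4% of all genes higher and 8.16% lower. Both comparisons use the same Ctr arrays. HOXB4 was the only HOX gene called higher with both oligonucleotides and 0 were called lower with both, beside 7.44% and 5.53% of all genes.

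With AS2, HOXA2 rose by 0.85 ± 0.13 on the log2 scale (limma estimate ± SE, adjusted p 0.00244), which is 1.81-fold. HOXA7 rose by 0.76 ± 0.12 (limma adjusted p 0.00327), HOXB6 by 0.74 ± 0.12 (limma adjusted p 0.00363) and HOXA6 by 0.74 ± 0.13 (limma adjusted p 0.0049). These 4 genes were still called with AS2 whichever single array was left out. HOXB5 rose by 0.72 ± 0.16 (limma adjusted p 0.0141), HOXB2 by 0.66 ± 0.15 (limma adjusted p 0.0166), HOXB4 by 0.60 ± 0.12 (limma adjusted p 0.00899) and HOXA4 by 0.44 ± 0.12 (limma adjusted p 0.0374). Leaving out AS2 array 1 or AS2 array 2 left 4 HOX genes called with AS2, and leaving out Ctr array 1 left 5. HOXB3 missed the threshold, with a difference of 0.47 ± 0.14 (limma adjusted p 0.0527).

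With AS1, HOXB4 rose by 0.42 ± 0.12 on the log2 scale (limma adjusted p 0.0421). This call was lost whichever single array was left out, with limma adjusted p between 0.0777 and 0.177. The other AS1 differences of the stretches HOXA2 to HOXA7 and HOXB2 to HOXB8 lay between -0.17 in HOXA2 and 0.41 in HOXB2.

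**Figure D2:**
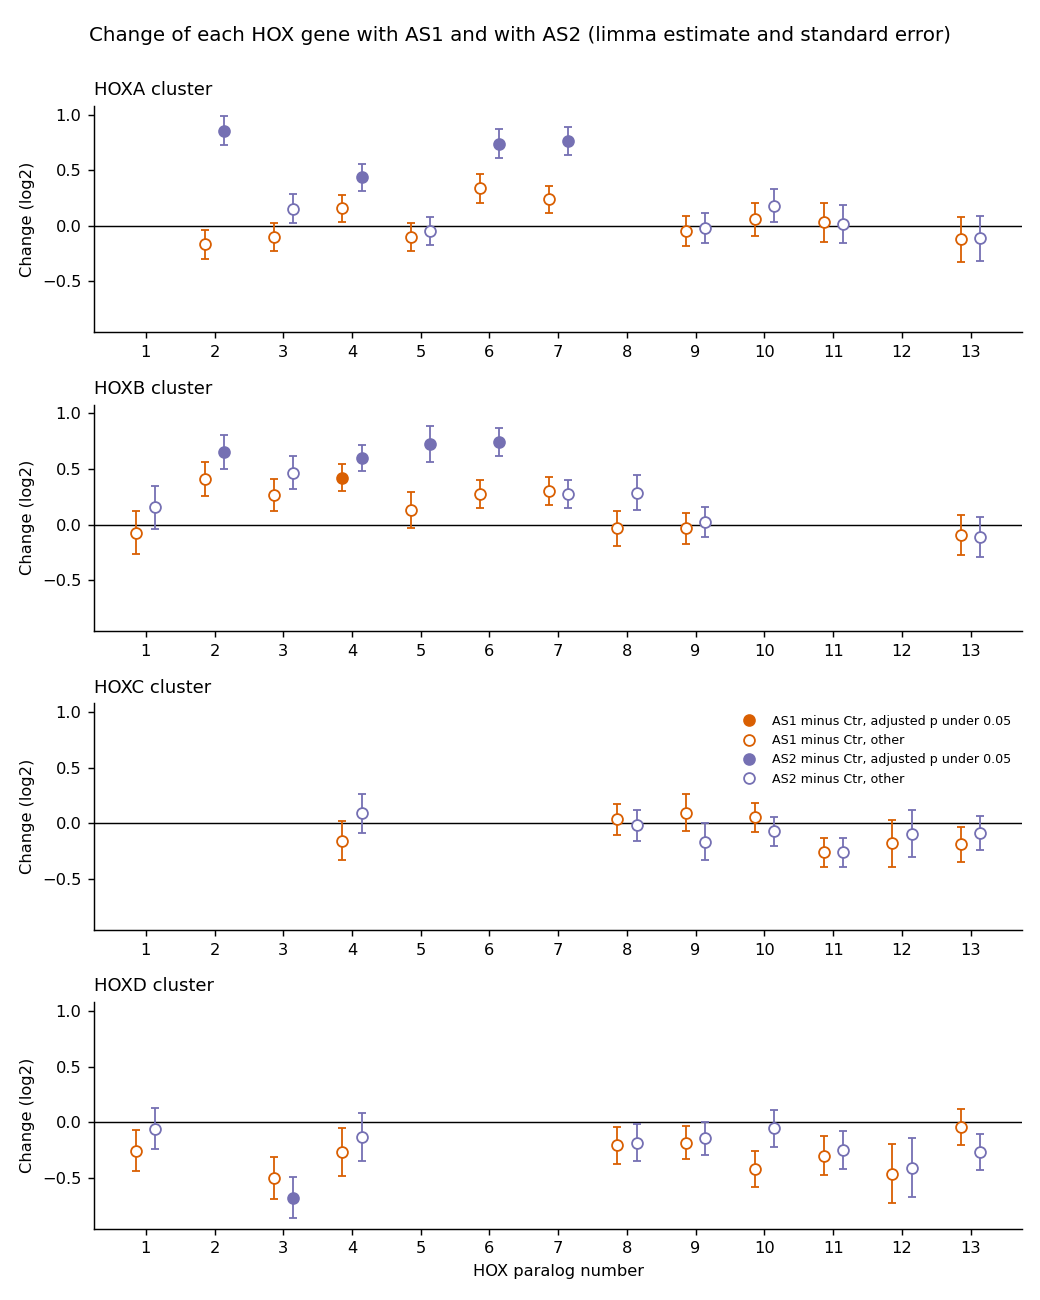
Change of each HOX gene on the log2 scale (vertical axis) with AS1 and with AS2 against Ctr, by cluster (panels) and paralog number (horizontal axis). Points are limma estimates, bars are standard errors, and filled points have an adjusted p under 0.05. Filled points above 0 lie between paralogs 2 and 7 of HOXA and HOXB, and the filled point below 0 is HOXD3 with AS2.

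In the mean of AS1 and AS2 against Ctr, 5 HOX genes were called higher (13.9%) and 1 lower (2.78%), beside 13% of all genes higher and 9.61% lower, so the share of higher HOX genes was near that of all genes. The higher genes were HOXA6 with a difference of 0.54 ± 0.11 (limma adjusted p 0.00903), HOXB2 with 0.53 ± 0.13 (limma adjusted p 0.0186), HOXB4 with 0.51 ± 0.10 (limma adjusted p 0.00794), HOXB6 with 0.51 ± 0.11 (limma adjusted p 0.0089) and HOXA7 with 0.50 ± 0.11 (limma adjusted p 0.00995). Without Ctr array 1, HOXA6 and HOXB6 were the only 2 HOX genes still called. HOXA4, HOXA6, HOXA7, HOXB2, HOXB3, HOXB4, HOXB6 and HOXB7, 8 of 36 HOX genes (22.2%), had all 4 oligonucleotide arrays above both Ctr arrays, beside 20.8% of all genes. HOXC11 and HOXD3, 2 of 36 (5.56%), had all 4 below, beside 19.5% of all genes.

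The median change of the 36 HOX genes in the mean of both oligonucleotides was -0.02 on the log2 scale, beside -0.04 for all genes. By cluster the median was 0.07 in HOXA, 0.33 in HOXB, -0.04 in HOXC and -0.20 in HOXD. The stretches HOXA2 to HOXA7 and HOXB2 to HOXB8 were chosen after their values were seen and are described without a test. In HOXA2 to HOXA7 the median change was 0.03 with AS1 and 0.59 with AS2, with 0 and 4 of 6 genes called higher, beside 10.4% of all genes with each oligonucleotide. In HOXB2 to HOXB8 it was 0.27 with AS1 and 0.60 with AS2, with 1 and 4 of 7 genes called higher, beside the same 10.4%. Since the stretches were picked for their values, nothing is read from these counts. All 7 of these HOXB genes and 5 of the 6 HOXA genes had a difference above 0 with AS2, and the exception was HOXA5 at -0.05. The 4 genes HOXA9 to HOXA13 had a median of -0.01 in the mean of both oligonucleotides. Centring the arrays on their medians or a further quantile normalization moved the median of HOXA9 to HOXA13 to the other side of 0 and left those of HOXA2 to HOXA7 and HOXB2 to HOXB8 above 0.

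AS2 was also set directly against AS1. The difference itself does not use the Ctr arrays, but its error comes from the fit of all 6 arrays. HOXA2 was 1.02 ± 0.13 higher with AS2 than with AS1 on the log2 scale (limma adjusted p 0.0162), which is 2.03-fold. It was the only HOX gene called higher, 1 of 36 (2.78%), and 0 were called lower, beside 0.32% of all genes higher and 0.344% lower. Leaving out AS2 array 1 or AS2 array 2 ended this call, with differences of 1.04 and 1.00 and limma adjusted p of 0.235 and 0.21. HOXB5 with a difference of 0.59, HOXA7 with 0.52, HOXB6 with 0.47 and HOXA6 with 0.40 were not called, at limma adjusted p from 0.129 to 0.301. HOXB7, at -0.03, was the gene of HOXA2 to HOXA7 and HOXB2 to HOXB8 in which AS2 was not above AS1.

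**Figure D3:**
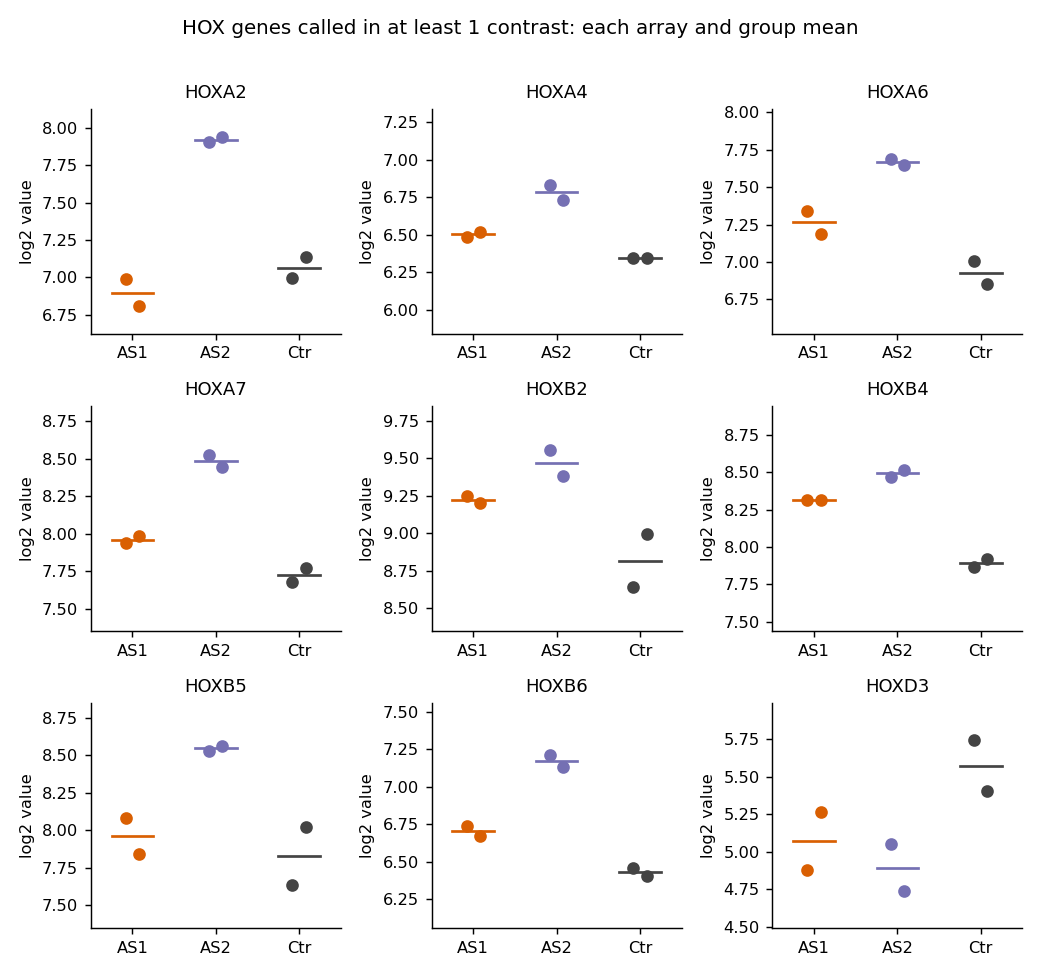
Log2 value on each array (points) and group mean (lines) for the 9 HOX genes called in at least 1 comparison, in the groups AS1, AS2 and Ctr, with vertical axes of equal span. AS2 is above both Ctr arrays in 8 genes and below them in HOXD3, and in HOXB5 the AS1 and Ctr arrays overlap.

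The promoters of HOXA2, HOXA4, HOXA6 and HOXA7 are shown because these 4 HOXA genes were called with AS2 while HOXA3 and HOXA5 between them were not. That split depends on the averaging: with the median of probesets HOXA3 was called with AS2 and HOXA4 was not (limma adjusted p 0.216). Each stretch is the 250 bases before the annotated start, from RefSeq on build GRCh38.p14, where all 4 genes lie on the minus strand of chromosome 7, and is written 5' to 3' along the gene. The RefSeq promoter table held 20 of the HOX genes, in 27 windows. Capitals mark matches on either strand to the CCAAT box (CCAAT), the GC box (GGGCGG), the TATA box (TATAAA), a homeodomain core (TAATTA) and a PBX-HOX sequence (TGATNNAT).
HOXA2, chr7:27102684-27102933: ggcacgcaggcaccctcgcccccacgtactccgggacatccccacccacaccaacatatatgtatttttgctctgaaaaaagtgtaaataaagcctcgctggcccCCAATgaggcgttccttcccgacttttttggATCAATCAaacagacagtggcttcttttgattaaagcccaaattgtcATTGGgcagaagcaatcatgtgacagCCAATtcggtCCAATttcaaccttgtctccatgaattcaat
HOXA4, chr7:27130758-27131007: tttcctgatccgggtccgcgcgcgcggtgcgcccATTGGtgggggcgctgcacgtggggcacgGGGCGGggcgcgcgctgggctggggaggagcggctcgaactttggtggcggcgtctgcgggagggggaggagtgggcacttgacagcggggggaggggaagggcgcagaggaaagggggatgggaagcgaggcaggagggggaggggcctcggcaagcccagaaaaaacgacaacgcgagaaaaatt
HOXA6, chr7:27147775-27148024: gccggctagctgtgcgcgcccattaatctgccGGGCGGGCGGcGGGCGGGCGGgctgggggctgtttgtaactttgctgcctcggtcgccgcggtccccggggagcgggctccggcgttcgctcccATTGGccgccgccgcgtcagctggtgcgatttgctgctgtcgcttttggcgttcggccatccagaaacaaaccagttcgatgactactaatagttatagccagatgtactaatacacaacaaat
HOXA7, chr7:27156676-27156925: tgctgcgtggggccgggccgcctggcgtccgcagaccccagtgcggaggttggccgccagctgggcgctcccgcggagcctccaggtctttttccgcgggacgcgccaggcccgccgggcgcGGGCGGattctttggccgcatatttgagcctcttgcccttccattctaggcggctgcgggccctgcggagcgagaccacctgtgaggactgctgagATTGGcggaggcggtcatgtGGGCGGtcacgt

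The window of HOXA2 differed from those of HOXA4, HOXA6 and HOXA7 in its letters. It held 4 CCAAT matches, 1 PBX-HOX match and no GC box, and 8 CG dinucleotides. HOXA4 had 1 CCAAT match, 1 GC box and 26 CG dinucleotides, HOXA6 had 1 CCAAT match, 4 GC boxes, some of which overlap, and 27 CG, and HOXA7 had 1 CCAAT match, 2 GC boxes and 28 CG. None of the 4 windows held TATAAA or TAATTA. Over 35116 promoter windows of the same length, 32% held CCAAT, 42.6% GGGCGG, 10.7% TATAAA, 4.35% TAATTA and 6.47% TGATNNAT, and the median number of CG was 11. Among the 27 HOX windows, which include several starts of 1 gene, 18 held CCAAT, 13 GGGCGG, 5 TATAAA, 3 TGATNNAT and 2 TAATTA. The windows of HOXA3, which are not shown, held from 0 to 26 CG. A match is a description of the letters and not a binding site.

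Probesets of the HOX genes were called higher about as often as those of all genes, and were called lower less often. In the mean of both oligonucleotides 15 of 255 HOX probesets (5.88%) were called higher and 1 (0.392%) lower, beside 5.97% of all probesets higher and 5.53% lower. All 15 higher ones lay among the 99 probesets of HOXA2 to HOXA7 and HOXB2 to HOXB8 (15.2%), and the lower one was in HOXC11. These stretches were picked for their values, so nothing is read from that share. Unequal changes of probesets were tested per gene with the F test of limma diffSplice. HOXB5, HOXB4, HOXB7, HOXB2, HOXA7, HOXB8 and HOXB6 were called, 7 of 36 HOX genes (19.4%), beside 20.7% of all genes tested, so unequal changes were not more frequent among them. Without Ctr array 1 only HOXB5 and HOXB7 were still called, 2 HOX genes, and without AS1 array 1 or AS2 array 2 there were 3. Leaving out single arrays left 2 to 10 HOX probesets called in place of 16.

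HOXB5 had the smallest p of these genes (diffSplice adjusted p 5.04e-05). Its 6 probesets changed by between -0.55 and 1.76 on the log2 scale in the mean of both oligonucleotides, where the highest change belongs to a probeset that was at background level in Ctr. The probeset 3761386 had 5.23 and 4.33 with AS1, 5.55 and 6.04 with AS2, and 3.23 and 3.81 in Ctr, below the olfactory receptor medians of 4.24 and 4.05. The probeset 3761387 had 6.80 and 6.53 with AS1, 8.05 and 8.02 with AS2, and 6.04 and 6.52 in Ctr. By contrast the probeset 3761384 had 9.06 and 8.73 with AS1, 8.87 and 8.68 with AS2, and 9.08 and 9.69 in Ctr. The rise of the HOXB5 gene value with AS2 was not shared by all its probesets, and with the median of its probesets in place of the mean the AS2 difference was 0.03 (limma adjusted p 0.95).

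HOXB4 (diffSplice adjusted p 0.000789) held 3 called probesets among 9. The probeset 3761349 had 8.5 and 8.42 with AS1, 8.46 and 8.99 with AS2, and 6.97 and 7.52 in Ctr, whereas the brightest probeset of the gene, 3761354, had 11.28 and 11.41 with AS1, 11.19 and 11.04 with AS2, and 10.86 and 11.08 in Ctr. In HOXB2 (diffSplice adjusted p 0.00462) the probeset 3761305 had 6.67 and 5.88 with AS1, 6.98 and 6.60 with AS2, and 3.83 and 4.96 in Ctr. Its Ctr values were below the olfactory receptor thresholds of 6.08 and 5.76, so the size of its change is not well measured. The brightest probeset of HOXB2, 3761296, had 12.08 and 12.05 with AS1, 12.22 and 12.09 with AS2, and 11.85 and 11.90 in Ctr. The brightest probesets of HOXB4 and HOXB2 changed by 0.26 and 0.24, less than the called ones of the same genes.

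HOXA7 (diffSplice adjusted p 0.0153) also had 1 dim probeset that stood apart. The probeset 3042892 had 7.11 and 6.66 with AS1, 7.5 and 7.70 with AS2, and 5.0 and 6.31 in Ctr. Its value on Ctr array 1 was the lowest of the 6 by more than 1 on the log2 scale. In HOXA2 the change with AS2 was shared by more of the gene: 4 of its 5 probesets differed by 0.74 to 1.82, and the fifth, which was the dimmest, by 0.08. In HOXB6 all 8 probesets had an AS2 difference above 0, from 0.29 to 1.17. In HOXA4 the 9 AS2 differences ran from 0.09 to 1.00 and in HOXA6 the 4 ran from 0.44 to 1.18. HOXA3 overlaps HOXA4, HOXA5 and HOXA6 in the current annotation, HOXB3 overlaps HOXB4 and HOXD3 overlaps HOXD4, so exons of these neighbours can lie within each other's transcripts.

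**Figure D4:**
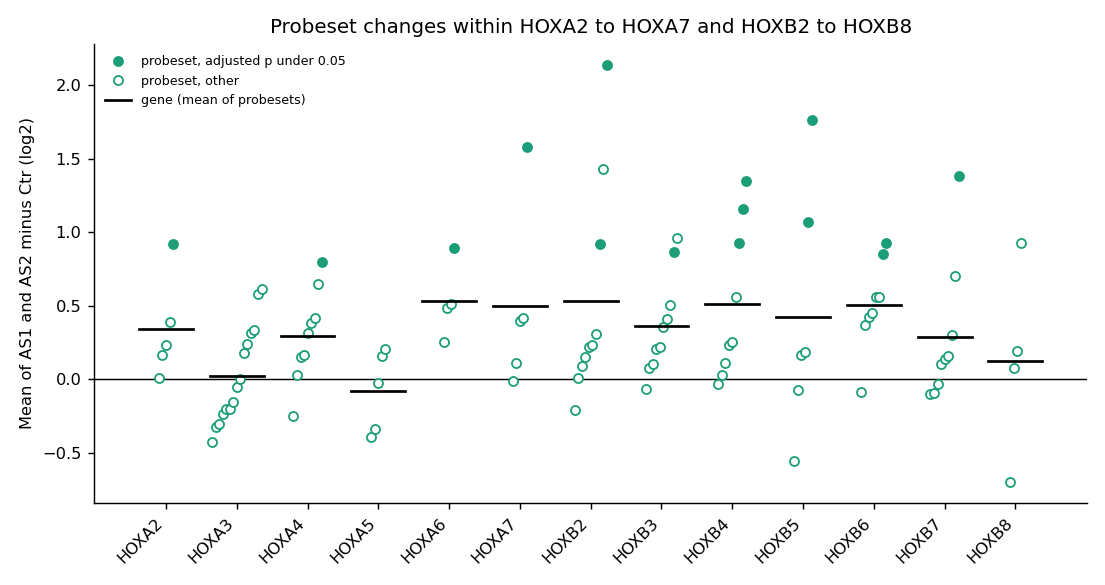
Change of each probeset (points, log2, mean of AS1 and AS2 minus Ctr) of HOXA2 to HOXA7 and HOXB2 to HOXB8, ordered by size within each gene, with the gene value as a line. Filled points have an adjusted p under 0.05. In HOXB5 the probesets run from -0.55 to 1.76 and in HOXB2 up to 2.14, both upper ends being probesets below the olfactory receptor thresholds in Ctr.

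No HOXC gene value was called in any comparison. HOXC12 had log2 values of 6.74 and 7.39 with AS1, 7.20 and 7.11 with AS2, and 7.42 and 7.07 in Ctr. HOXC13, a gene of hair and nail, had 5.85 and 6.13 with AS1, 6.24 and 5.93 with AS2, and 6.20 and 6.15 in Ctr. All groups overlapped in HOXC12, while in HOXC13 the AS1 arrays were below Ctr. HOXC4, HOXC8, HOXC9, HOXC10 and HOXC11 had differences between -0.26 and 0.10 with AS1 and between -0.26 and 0.09 with AS2. A further 13 probesets name more than 1 of HOXC4, HOXC5 and HOXC6 and were left out of gene values. Of these, 2 that name HOXC6 and HOXC4 were above the array median on both Ctr arrays. The probeset 3416323 had 10.58 and 10.85 with AS1, 10.65 and 10.49 with AS2, and 10.83 and 10.39 in Ctr, and 3416317 had 9.15 and 9.85 with AS1, 9.65 and 9.45 with AS2, and 9.83 and 9.33 in Ctr. The groups overlapped in both probesets, which cannot be assigned to 1 of the genes.

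In HOXD all 9 genes had a difference below 0 with AS1 and with AS2, also after median centring and further quantile normalization, and HOXD3 was the only one called. Of all 16573 genes, 9555 were below 0 with AS1 and 8959 with AS2. Of the 278 olfactory receptor genes, 202 were below 0 with AS1 and 190 with AS2. HOXD3, which acts in the neck vertebrae in the mouse, had log2 values of 4.88 and 5.27 with AS1, 5.05 and 4.74 with AS2, and 5.75 and 5.40 in Ctr, with a difference of -0.68 ± 0.19 with AS2 (limma adjusted p 0.0335) and of -0.59 ± 0.16 in the mean (limma adjusted p 0.028). It lay below the threshold for on on both Ctr arrays, and its AS2 difference was -0.20 (limma adjusted p 0.372) when probesets below the 25th percentile of brightness were left out. Without Ctr array 1 it was -0.51 and not called, and it was not called without either AS2 array. The mean of the 9 HOXD genes was 5.64 and 6.06 with AS1, 6.0 and 5.80 with AS2, and 6.30 and 5.99 in Ctr. The median of the 278 olfactory receptor genes was likewise highest on Ctr array 1, with 3.93 and 4.07 with AS1, 4.10 and 3.99 with AS2, and 4.24 and 4.05 in Ctr, and its part in the HOXD values was not tested. Olfactory receptor genes had a median change of -0.12 in the mean of both oligonucleotides, with 4 higher and 8 lower of 278.

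HOXD1, which was on in Ctr, had log2 values of 6.75 and 7.11 with AS1, 7.32 and 6.93 with AS2, and 7.32 and 7.05 in Ctr. HOXD4 had 6.16 and 6.57 with AS1, 6.70 and 6.30 with AS2, and 6.88 and 6.38 in Ctr. HOXD8 had 5.78 and 6.20 with AS1, 6.03 and 6.0 with AS2, and 6.32 and 6.08 in Ctr. The AS2 arrays were below Ctr in HOXD8, and all groups overlapped in HOXD1 and HOXD4. HOXD9 had 5.95 and 6.23 with AS1, 6.21 and 6.06 with AS2, and 6.37 and 6.18 in Ctr. HOXD11, a gene of the forearm and the kidney in the mouse, had 6.47 and 6.94 with AS1, 6.80 and 6.71 with AS2, and 7.12 and 6.89 in Ctr. The AS2 arrays were below Ctr in HOXD11, and all groups overlapped in HOXD9. In 7 of the 9 HOXD genes the highest of the 6 values was on Ctr array 1. The remaining genes HOXD10, HOXD12 and HOXD13 had differences between -0.46 and -0.05 with AS1 and between -0.41 and -0.06 with AS2. The off genes of HOXA and HOXB, namely HOXA9, HOXA11, HOXB9 and HOXB13, had differences between -0.11 and 0.03 with either oligonucleotide.

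HOX proteins bind DNA together with TALE homeodomain proteins of the PBX, MEIS and PKNOX families. The list of 10 TALE genes measured also held TGIF1 and TGIF2, which lie outside these families. Of the 10, 1 was called higher (10%) and 1 lower (10%) in the mean of both oligonucleotides. These shares were near the 13% and 9.61% of all genes, and 9 of the 10 were on in Ctr. PBX3 had log2 values of 8.37 and 8.07 with AS1, 7.97 and 7.99 with AS2, and 7.48 and 7.79 in Ctr, a difference of 0.46 (limma adjusted p 0.0382). PKNOX2 had 6.20 and 6.49 with AS1, 6.58 and 6.49 with AS2, and 7.18 and 7.19 in Ctr, and fell by 0.74 (limma adjusted p 0.00264). In both genes all 4 oligonucleotide arrays were on 1 side of Ctr.

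Polycomb proteins keep HOX genes silent and Trithorax proteins keep them active. Of 26 Polycomb genes measured, 6 were called higher (23.1%) and 4 lower (15.4%) in the mean of both oligonucleotides, beside 13% and 9.61% of all genes, with a median change of -0.01. BMI1, a core subunit of the complex that marks histone H2A, had log2 values of 8.34 and 8.38 with AS1, 8.08 and 8.43 with AS2, and 7.28 and 7.55 in Ctr. EZH2, the enzyme that methylates histone H3, had 7.28 and 7.18 with AS1, 7.24 and 7.20 with AS2, and 7.53 and 8.04 in Ctr. BMI1 was higher and EZH2 lower on every oligonucleotide array than on either Ctr array, with changes of 0.89 and -0.56. SCMH1 fell by 0.85 and PHF19 by 0.71, while EZH1, a relative of EZH2, rose by 0.61, and PCGF2, a relative of BMI1, fell by 0.58. Of 14 Trithorax and demethylase genes 2 were called higher (14.3%) and 1 lower (7.14%), near the shares of all genes. KDM6A (listed under its older symbol UTX), which removes methyl groups from histone H3, rose by 0.71, KMT2C (listed as MLL3), a histone methyltransferase, rose by 0.43 and SMARCA4, an ATPase of chromatin remodelling complexes, fell by 0.35.

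Retinoic acid switches on anterior HOX genes in the embryo. Of 17 retinoic acid genes measured, 2 were called higher (11.8%) and 0 lower in the mean of both oligonucleotides, beside 13% and 9.61% of all genes. RDH10, the enzyme that makes retinaldehyde from retinol, had log2 values of 11.07 and 11.08 with AS1, 10.80 and 11.02 with AS2, and 9.77 and 9.71 in Ctr, a rise of 1.25 (limma adjusted p 0.000154). All 4 oligonucleotide arrays were far above Ctr. RARA, a receptor of retinoic acid, rose by 0.41 (limma adjusted p 0.0242), with 7.90 and 7.86 with AS1, 7.95 and 7.80 with AS2, and 7.45 and 7.48 in Ctr. The median change of the list was -0.03. Of 10 regulators of the body axis, GDF11, a signal that sets where trunk passes into tail, was the 1 gene called and fell by 0.59.

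Other factors that carry position in fibroblasts gave 3 higher (11.5%) and 1 lower (3.85%) of 26 measured, at or below the 13% and 9.61% of all genes, with a median change of -0.04. TCF21, a factor of lung and kidney mesenchyme, had log2 values of 10.42 and 10.33 with AS1, 10.05 and 10.22 with AS2, and 9.35 and 9.54 in Ctr. TBX3, a factor of limb and lung mesenchyme, had 9.55 and 9.59 with AS1, 9.59 and 9.51 with AS2, and 8.77 and 8.86 in Ctr. PRRX1, a factor of limb mesenchyme, had 10.32 and 10.30 with AS1, 10.64 and 10.58 with AS2, and 9.82 and 10.21 in Ctr. In these 3 genes every oligonucleotide array was above Ctr, by 0.81, 0.74 and 0.44 in the mean. OSR1, a factor of kidney and heart mesenchyme, had 7.49 and 7.68 with AS1, 7.72 and 7.54 with AS2, and 8.21 and 8.29 in Ctr, and fell by 0.65.

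Genes that flank the clusters on either side were given as a reference for the chromosomal region. Beside HOXA, TAX1BP1 rose by 0.53 and HIBADH fell by 0.56 in the mean of both oligonucleotides, while SKAP2, EVX1 and SNX10 were not called, with differences of 0.09, -0.16 and -0.12. Beside HOXB, CALCOCO2 rose by 0.67, and SNX11, SKAP1, PRAC, TTLL6 and ATP5G1 were not called, with differences between -0.26 and 0.17. Beside HOXC, CBX5 fell by 0.42, and CALCOCO1, ATP5G2, SMUG1 and HNRNPA1 were not called, with differences between -0.31 and -0.04. Beside HOXD, KIAA1715 rose by 0.50, and MTX2, ATF2 and ATP5G3 were not called, with differences between -0.28 and 0.27. Each region held both called and uncalled neighbours. Of 18 listed noncoding RNAs of the HOX clusters 0 were measured here.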

How the data were processed

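RNA from WI38 cells was read on 6 Affymetrix Human Exon 1.0 ST arrays, 2 per group. The authors deposited log2 values per probeset after RMA normalization in Partek. Versions of these: not given in the sources used here. No scanner files were used. Probesets naming 1 gene were averaged per gene, giving 16573 genes, and no filter was set on low values. limma 3.58.1 in R 4.3.3 fitted the 3 groups together, with Benjamini-Hochberg adjustment over all genes. Probesets were fitted likewise, and diffSplice tested unequal changes within a gene. The fits were tested on simulated data. Arrays carry no counts, and their number limits the precision. The members and lists were chosen with earlier results of these data known. Named were MALAT1, every HOX gene called or on in Ctr with each array's value, the other HOX genes by range, up to 6 called genes of each other list by size of change, and the neighbours of each cluster. Alternatives changed the averaging, probeset and gene filters, scaling, test, threshold, replicate block and arrays. Gene order and promoters came from RefSeq tables on GRCh38.p14. The labels' shared replicate numbers were not used as pairs, except as a block in an alternative.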

Additional observations from a re-analysis of the deposited data

Results flagged for a closer look

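HOXA2 differed between the oligonucleotides: AS2 minus AS1 was 1.02 on the log2 scale (limma adjusted p 0.0162), with values of 7.90 and 7.94 for AS2 and 6.99 and 6.81 for AS1. The test of the difference itself passed the threshold, and both AS2 arrays were above both AS1 arrays. The call was lost without AS2 array 1 (limma adjusted p 0.235), without AS2 array 2 (0.21), with the median of probesets (0.105), with the methods' ANOVA (0.332) and with the replicate block (0.0523).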

How the results depend on the processing

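With AS1, 1 HOX gene was called. The number was 0 with the median of probesets, 3 with the brighter probesets or the brighter genes, 0 with the methods' ANOVA, 0 with the methods' threshold, 2 with a trended and robust fit, 0 with only the groups compared, and 0 to 2 when single arrays were left out. With AS2, 9 were called, against 3 with the methods' ANOVA, 0 with the methods' threshold and 4 to 10 when single arrays were left out. In the mean of both, 6 were called, against 3 with the methods' ANOVA, 0 with the methods' threshold, 9 with a further quantile normalization and 2 to 8 when single arrays were left out. For AS2 against AS1, 1 was called, against 0 with the median of probesets, 2 with the brighter genes, 0 with the methods' ANOVA, 3 with a trended and robust fit and 0 to 1 when single arrays were left out. The ANOVA also ended the call of MALAT1 in the mean of both (adjusted p 0.0599). Of the other lists 33 genes were called, against 6 with the methods' ANOVA, 2 with the methods' threshold and 20 to 33 when single arrays were left out, the lowest without AS2 array 2 or Ctr array 1. HOX genes on in Ctr numbered 23, against 14 at the 99th percentile and 6 at the median of all genes. HOX probesets called numbered 16, and 2 to 10 when single arrays were left out, and genes with unequal probeset changes numbered 7, and 2 to 7. No HOX gene called in the fit of all 6 arrays changed its direction in that comparison under these settings. MALAT1 in the mean of both also kept its direction. The directions of HOX genes that were not called were not compared between settings. The causes were not tested.

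The deviations of arrays with the same replicate number correlated at -0.31 between AS1 and AS2, -0.44 between AS1 and Ctr and 0.34 between AS2 and Ctr. The signs were mixed, so the numbers mark no pairing common to all 3 groups. Whether some arrays share a batch was not tested. With the replicate number as a block, 0 HOX genes were called with AS1, 7 with AS2, 5 in the mean of both and 0 for AS2 against AS1, beside 24 genes of the other lists, 9 HOX probesets and 7 genes with unequal probeset changes. A crossed block, chosen after seeing the data, gave 3 with AS1, 10 with AS2, 12 in the mean and 2 for AS2 against AS1. With 2 arrays per group, a lone array left in a group was assumed to vary like the others, and levels near those of olfactory receptor genes cannot be told from background.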
